A study of Mus musculus with 45 samples.

Results

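Terminal maturation of red cell precursors that lack Stag2 was followed through chromatin accessibility, by comparing Late with Int erythroblast nuclei inside each of 3 Stag2 KO libraries. The members were 14048 nuclei, 6815 of class Int and 7233 of class Late, of 34073 nuclei in the deposited table. They were taken by the genotype, library and class columns of the authors' table of nuclei. KO replicates 1, 2 and 3 gave 2371, 2043 and 2401 Int nuclei and 2176, 2549 and 2508 Late nuclei. The 351 KO nuclei of class Early were not members. Int is read here as intermediate, since the sources used here do not spell it out.

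Erythroblasts mature by dividing a few more times while they load globin and heme, then leave the cell cycle, condense the nucleus, clear their mitochondria and expel the nucleus. Most genes lose activity on the way, while a small erythroid programme under factors such as Gata1 and Klf1 stays on. Cohesin is the ring complex that holds chromatin loops. It contains either Stag1 or Stag2, so cells without Stag2 depend on Stag1.

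The nuclei came from Ter119+ erythroblasts of mice, profiled as 10x multiome libraries with 3 libraries of Stag2 WT and 3 of Stag2 KO animals. Ter119 is a surface antigen of red cell precursors. All animals had received pIpC, the inducer of the deletion, 6 to 8 weeks earlier, so WT as well as KO carry that exposure. The Cre driver, sex, age, organ and number of animals per library are not given in the sources used here, and p-values therefore measure the spread between libraries.

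The value analysed is a gene score, the ATAC signal that the authors summed around each gene and scaled to a fixed total per nucleus. It measures accessibility, not expression, and neighbouring genes share fragments in it. Scores were averaged over the Int and over the Late nuclei of each library and set to a sum of 1000000 per profile. The step is the Late minus the Int value of log2(score + 1) within a library, averaged over the 3 KO libraries. A step is thus a change in the share of a profile, and absolute gain or loss at a gene cannot be read from it. The limma fit asked how well a step repeated over libraries, with a Benjamini-Hochberg threshold of 0.05. It borrows variance across genes, with 2 residual and 16.96 prior degrees of freedom for the KO step. Its p-values therefore do not rest on the spread of a gene over its own 3 libraries alone. Because the authors assigned the classes on the same nuclei, by a method the sources used here do not give, this fit does not test whether the classes differ. The comparison of the KO step with the WT step is a test between samples.

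The libraries held between 13283091 and 36201600 fragments per class in KO, and Late nuclei were shallower than Int nuclei. The median number of fragments per nucleus averaged 14480 ± 545 in KO Int and 6202 ± 261 in KO Late nuclei (SD, n = 3). Of the 14399 KO nuclei, 260 carried a barcode that also occurred in another KO library. Int nuclei fell into the authors' clusters C10 (1042, 811 and 1112 nuclei), C8 (747, 595 and 675) and C5 (520, 590 and 567), and Late nuclei lay almost wholly in C2 (2123, 2477 and 2435). WT nuclei of the same classes lay in other clusters apart from C5, mainly C11, C9 and C6 for Int and C3 for Late.

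The scaled score changed at most genes between Int and Late, with the largest rise at Xpo7 (2.30) and the largest fall at Tfdp1 (-1.99) among the genes named by rule. Of 18292 genes tested, 14017 had a step past the threshold (76.6%), 4781 higher (26.1%) and 9236 lower (50.5%). The 3 Late values lay apart from the 3 Int values in 74.6% of genes. With at least 1.5-fold between the classes the counts were 372 higher (2.03%) and 3727 lower (20.4%), and with at least 2-fold 47 higher (0.257%) and 834 lower (4.56%). The balance of directions depended on the scaling and on the filter. The higher share of the calls was 34.1% as computed, 56.6% after centring each profile on its median gene, 53.5% after quantile normalization, 51.6% after cyclic loess and 43.4% in nuclei matched on fragments. It was 53.6% with a filter at a score of 20 and 25.9% with no filter. The median step of all genes was -0.17 as computed and 0.046, 0.026 and 0.014 under the 3 other scalings, so steps close to 0 have no fixed sign and are read against that median.

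Xpo7 rose most. It encodes a nuclear export receptor, and it is known in erythroblasts for its part in nuclear condensation and enucleation. Its gene (14, 70654246 to 70766628, minus strand; all positions are on mm10) had scores of 63.0, 73.5 and 68.5 in Int and 337, 329 and 350.1 in Late nuclei of KO replicates 1, 2 and 3. The step was 2.30 (SE 0.040, limma adjusted p = 7.43e-19). Every Late library stood far above every Int library, and the 3 Int clusters were alike, at 66.8 in C8, 72.6 in C10 and 59.7 in C5, against 342 in C2. Its neighbour Dok2, within 100 kb, may share fragments with it and stepped by 1.15.

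Among the 12 genes that rose most were a membrane protein, a ubiquitin enzyme and a tubulin-binding protein. Tmcc2 (1, 132356315 to 132391386, minus strand), a transmembrane coiled-coil protein, scored 215, 222 and 226 in Int and 696, 708 and 719 in Late, a step of 1.67 (SE 0.029, limma adjusted p = 7.43e-19). Tmem131l (3, 83898287 to 84040161, minus strand) went from 97.8, 96.6 and 94.3 to 328, 329 and 313, a step of 1.74 (SE 0.031, limma adjusted p = 7.43e-19). Ube2h (6, 30211289 to 30304539, minus strand), the ubiquitin-conjugating enzyme that works with the CTLH ligase in maturing erythroblasts, went from 112, 112 and 107 to 311, 305 and 299, a step of 1.46 (SE 0.031, limma adjusted p = 1.42e-17). Tbcel (9, 42412317 to 42472226, minus strand), a tubulin-binding protein related to cofactor E, went from 56.5, 57.2 and 54.3 to 157, 163 and 165, a step of 1.51 (SE 0.037, limma adjusted p = 1.04e-16). In all 4 genes the Int and Late libraries lay apart, with Late values within a few percent of each other. The remaining 7 were Fam229a (1.90), Zfp874a (1.51), Khnyn (1.5), Tmem200b (1.48), Bco2 (1.46), Ankrd61 (1.25) and Pea15a (1.23), with Int scores from 8.32 for Bco2 to 54.6 for Tmem200b. Fam229a, Zfp874a, Khnyn and Tmem200b each had a neighbour within 100 kb that rose by more than 1.25, so the gene that carries the signal at these loci cannot be told apart. Mkrn1, an E3 ubiquitin ligase named after its values were seen, went from 101, 105 and 111 to 247, 254 and 246 (1.23).

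**Figure D1:**
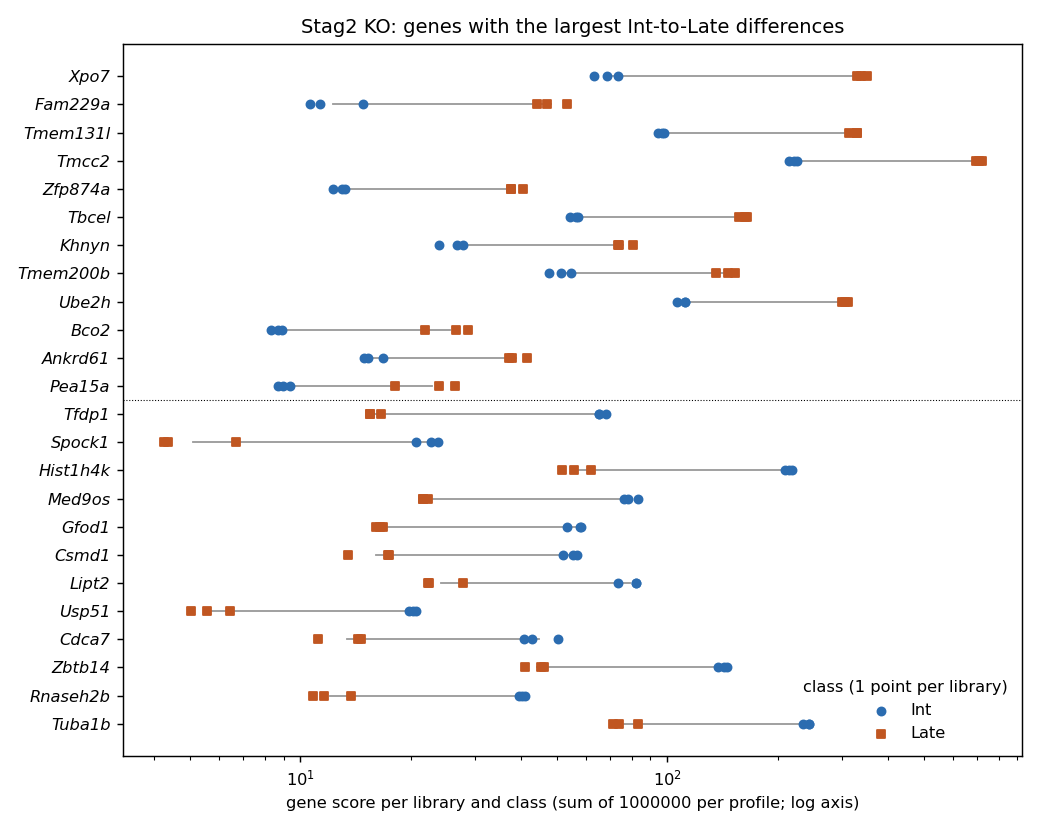
Gene scores of the 12 genes that rose most (above the dotted line) and the 12 that fell most (below it) between Int and Late nuclei of the Stag2 KO libraries. Each point is 1 library in 1 class on a log axis, blue circles Int and orange squares Late, and grey lines join the class means. In every gene shown the 3 Late points lie on one side of the 3 Int points, and Xpo7 moves from a mean of 68.3 to 339.

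The 12 genes that fell most included a cell cycle regulator, a replication-dependent histone and a tubulin. Tfdp1 (8, 13338751 to 13378448, plus strand), the dimer partner of E2F factors, scored 68.1, 65.2 and 65.1 in Int and 16.6, 15.5 and 15.4 in Late nuclei of replicates 1, 2 and 3, a step of -1.99 (SE 0.055, limma adjusted p = 6.96e-16). Hist1h4k (13, 21750145 to 21750553, minus strand), an H4 gene of the large histone cluster, scored 209, 219 and 215 and 62.0, 51.7 and 55.5, a step of -1.91 (SE 0.045, limma adjusted p = 6.76e-17). Late values of both genes were far below Int values in each library. Of the 42 Hist1 genes tested, 38 fell and none rose, 17 of them by at least 1.5-fold, with a median of -0.47, beside 50.5% lower, 20.4% lower by 1.5-fold and a median of -0.17 over all genes. Neighbours in this cluster share fragments, so the 42 genes are not independent. Their counts under other scalings are not reported here. Hist1h2bn (-1.84) and Hist1h4j (-1.77), named after their values were seen, lie beside Hist1h4k and share fragments with it.

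Tuba1b (15, 98931429 to 98934390, minus strand), an alpha tubulin of dividing cells, fell from 234, 243 and 243 to 74.1, 71.1 and 83.2, a step of -1.65 (SE 0.038, limma adjusted p = 6.05e-17). Zbtb14 (17, 69383375 to 69390544, plus strand), a zinc finger repressor, fell from 143, 146 and 137 to 46.0, 41.0 and 45.2, a step of -1.67 (SE 0.043, limma adjusted p = 2.51e-16). Rnaseh2b (14, 62332105 to 62372992, plus strand), a subunit of the ribonuclease that removes ribonucleotides from DNA, fell from 41.1, 39.3 and 40.3 to 13.7, 11.6 and 10.8 (-1.67). Cdca7 (2, 72476219 to 72486890, plus strand), a Myc and E2F target, fell from 50.4, 40.7 and 42.8 to 14.6, 11.2 and 14.3 (-1.67). In these 4 genes no Late value reached an Int value. Med9os (-1.81), Lipt2 (-1.68), Gfod1 (-1.72) and Usp51 (-1.67) fell by similar amounts. The long genes Spock1 (-1.96) and Csmd1 (-1.72), which are known from the nervous system, fell as well, Csmd1 from 55.2, 56.8 and 52.1 to 17.3, 17.4 and 13.5. The level of 20 was asked of the higher class alone, and Fam229a, Zfp874a, Bco2, Ankrd61, Pea15a, Tfdp1, Spock1, Gfod1, Csmd1, Usp51, Cdca7 and Rnaseh2b were under it in the other class. Of these, Bco2, Pea15a, Spock1 and Usp51 were not tested with a filter at 20. Each of the 24 genes, 12 higher and 12 lower, was past the threshold in the same direction in nuclei matched on fragments and in every other alternative in which it was tested. The plot of the 24 genes shows their values by library.

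Several genes that fell have an E2F spelling in their promoter. The 300 bases from 250 before to 50 after the annotated start were read from RefSeq (GRCm38.p6) for 13040 of the tested genes and searched on both strands. The E2F spellings TTTCGCGC or GGCGGGAA occurred in 4.13% of all of them and in 5.33% of genes with a mean score of at least 20. Among genes of that level they occurred in 69 of 653 promoters of genes that fell at least 1.5-fold (10.6%) and in 5 of 235 of genes that rose as much (2.13%). Of the 12 genes that fell most, 8 were in the promoter table and 3 held one of these spellings. None of the 10 listed promoters of the 12 genes that rose most did. The 3 promoters are shown with Tmcc2, which rose, for contrast. Capitals mark a match, read on either strand, and Lipt2 also has 2 CCAAT boxes in capitals.
Tfdp1 (chr8:13338501-13338800, + strand) holds TTTCGCGC on the opposite strand 43 bases before the start.
Tfdp1: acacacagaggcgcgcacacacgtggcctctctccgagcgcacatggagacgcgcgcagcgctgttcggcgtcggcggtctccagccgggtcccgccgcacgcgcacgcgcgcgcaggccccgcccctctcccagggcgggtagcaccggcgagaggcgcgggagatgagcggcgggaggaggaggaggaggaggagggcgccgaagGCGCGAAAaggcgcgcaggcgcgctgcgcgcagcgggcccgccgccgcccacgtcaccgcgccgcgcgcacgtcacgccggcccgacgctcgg
Med9os (chr11:59948098-59948397, - strand) holds GGCGGGAA 48 bases before the start.
Med9os: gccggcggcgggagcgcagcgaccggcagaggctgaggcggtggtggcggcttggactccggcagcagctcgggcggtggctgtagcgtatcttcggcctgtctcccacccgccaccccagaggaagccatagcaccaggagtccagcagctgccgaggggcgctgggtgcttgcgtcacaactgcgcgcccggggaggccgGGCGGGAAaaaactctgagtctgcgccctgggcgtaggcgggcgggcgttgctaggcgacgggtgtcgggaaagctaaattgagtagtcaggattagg
Lipt2 (chr7:100159027-100159326, + strand) holds GGCGGGAA 101 bases before the start.
Lipt2: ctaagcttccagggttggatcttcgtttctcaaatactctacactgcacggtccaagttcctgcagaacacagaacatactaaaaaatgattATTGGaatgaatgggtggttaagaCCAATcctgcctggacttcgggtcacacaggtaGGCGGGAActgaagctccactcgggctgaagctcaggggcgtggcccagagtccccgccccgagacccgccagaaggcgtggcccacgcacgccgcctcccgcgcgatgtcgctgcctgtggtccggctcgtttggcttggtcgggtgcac
Tmcc2 (chr1:132391337-132391636, - strand) has no match to any of the 7 motifs searched.
Tmcc2: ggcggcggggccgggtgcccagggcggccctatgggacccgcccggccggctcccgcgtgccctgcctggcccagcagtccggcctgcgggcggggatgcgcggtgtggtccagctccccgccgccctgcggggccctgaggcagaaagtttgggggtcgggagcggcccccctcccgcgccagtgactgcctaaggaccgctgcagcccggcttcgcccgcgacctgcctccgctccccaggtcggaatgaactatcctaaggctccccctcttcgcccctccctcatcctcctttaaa
The other 5 motifs are spellings bound by Gata1, Klf1, STAT factors, NF-Y and ETS factors. The Gata1 spelling AGATAA stood in 7.12% of all promoters and in 5.74% of those at a score of at least 20, and among the latter in 2.98% of those that rose and in 6.74% of those that fell. The Klf1 spelling CCACACCC stood in 3.91%, 4.23%, 3.40% and 5.05% of the same 4 sets. The STAT spelling TTCNNNGAA stood in 7.21%, 6.91%, 9.79% and 8.12%. The NF-Y spelling CCAAT stood in 37.8%, 40.1%, 45.1% and 33.8%, and the ETS spelling CCGGAAG in 15.2%, 20.6%, 17.9% and 10.9%. Matches of different motifs overlapped in 0.498% of promoters and in none of those printed. A match describes the letters in this window and is no measured binding site.

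Erythroid stage markers are given as a description of the classes, since the classes were assigned on these nuclei and the markers were listed with earlier results known. Beside 26.1% higher and 50.5% lower over all genes, of 9 markers of earlier erythroblasts, 8 fell from Int to Late and none rose, and of 11 markers of later erythroblasts, 10 rose and none fell, though Tfrc, Cdk6 and Cd34 among the first and Alox15 among the second had the other sign under at least 1 scaling. Kit, the stem cell factor receptor, scored 15.6, 15.7 and 14.0 in Int and 6.83, 8.62 and 7.71 in Late, a step of -0.89 (SE 0.10, limma adjusted p = 1.83e-07). Myc fell from 43.2, 35.6 and 40.4 to 20.3, 16.3 and 20, a step of -1.04 (SE 0.061, limma adjusted p = 2.33e-11). Ube2o, a ubiquitin enzyme that remodels the proteome of reticulocytes, rose from 199, 216 and 196 to 437, 435 and 403, a step of 1.06 (SE 0.032, limma adjusted p = 1.64e-15). Bpgm, which makes the oxygen-affinity regulator 2,3-bisphosphoglycerate, rose from 118, 129 and 128 to 259, 251 and 253 (1.02).

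Within Int, the progenitor genes Gata2, Myc and Sox4 differed between clusters more than Tfdp1 and Tmcc2 did. Gata2 scored 137 in the Early nuclei of KO replicate 1, then 68.8 in C8, 41.2 in C10 and 42.6 in C5, and 30.1 in the Late cluster C2. Myc scored 148 in those Early nuclei, 60.5 in C8, 28.4 in C10 and 32.7 in C5, and 18.9 in C2. Sox4, a progenitor factor, scored 112, then 52.3 in C8, 34.1 in C10 and 40.5 in C5, and 17.8. For these 3 genes the largest part of the fall lay between Early and Int or inside Int, with C8 the highest Int cluster. Tfdp1 was at 83.1 in Early, 65.0 in C8, 65.2 in C10 and 68.3 in C5, and 15.5 in C2. Tmcc2 scored 146 in Early, 207 in C8, 233 in C10 and 218 in C5, and 713 in C2. With Int restricted to C5, the Int cluster most shared with WT, 10164 genes were past the threshold in KO.

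Gene lists are described by counts and medians beside the share of all tested genes that rose (26.1%) or fell (50.5%) and the median of all genes (-0.17). After median centring the larger count turned to the higher side for the erythroid factor (12 higher, 10 lower), iron (9 and 2), surface (11 and 5), enucleation (19 and 11), replication (19 and 14), cytokine (13 and 9) and cohesin (9 and 4) lists, and quantile normalization turned it to the lower side for membrane skeleton genes (7 higher, 10 lower). Transcription factors of the erythroid lineage gave 9 higher and 19 lower of 30, with a median of -0.20. Gata1 (X, 7959260 to 7976574, minus strand), the master regulator, scored 74.5, 80.1 and 82.8 in Int and 61.9, 63.7 and 69.3 in Late, a step of -0.28 (SE 0.039, limma adjusted p = 2.53e-06), which was -0.065 after median centring and then not past the threshold. Klf1, the activator of adult globin, went from 219.9, 229 and 239 to 178, 189 and 199 (-0.28; -0.065 after median centring, not past the threshold). Tal1 (-0.17) and Zfpm1, the cofactor of Gata1 (-0.16), fell by less than the scaling shift and had the other sign after median centring. Gata2 (-0.74), Myb (-0.74), Gfi1b (-1.09), Ikzf1 (-0.99), Bcl11a (-0.78) and Rb1 (-0.64) fell further. Gfi1b, a repressor needed for erythroid commitment, scored 142, 147 and 139 and then 60.9, 66.1 and 73.2. Foxo3 (0.51), which drives antioxidant and mitophagy genes, Mafk (0.48), E2f2 (0.45) and Lmo2 (0.38) rose.

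Globin genes gave 9 higher and 0 lower of 10, with a median of 0.48. Hba-a1, an adult alpha globin, went from 131, 155 and 139 to 227, 242 and 236, a step of 0.73 (SE 0.034, limma adjusted p = 7.11e-13). Hbb-bs, the adult beta globin, went from 246, 276 and 266 to 355, 380.4 and 377 (0.50). Each locus shares fragments over several genes, and all 10 tested neighbours of Hba-a1 within 100 kb rose. Heme synthesis was mixed (7 higher and 6 lower of 15). Alas2, the erythroid first enzyme, went from 86.1, 86.7 and 89.9 to 109, 107 and 104 (0.28), and Fech, which inserts the iron, from 174, 179 and 182 to 228, 231 and 227 (0.36), while Alad (-0.41) and Tmem14c (-0.40) fell. Iron genes gave 4 higher and 8 lower of 16. The uptake genes Steap3 (-0.59) and Tfr2 (-0.30) and the hepcidin suppressor Erfe (-0.73) fell, whereas Ftl1 (0.28) and Ncoa4 (0.41), which store and release ferritin iron, rose. Tfrc, the transferrin receptor, went from 148, 147 and 153 to 140.0, 141 and 145 (-0.071, and 0.14 after median centring, each past the threshold).

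Genes of the red cell membrane moved in both directions. The membrane skeleton list gave 9 higher and 8 lower of 21 and the blood group and surface list 9 higher and 10 lower of 21. Epb41, protein 4.1, went from 259.9, 278 and 269 to 543, 542 and 502, a step of 0.97 (SE 0.033, limma adjusted p = 9.12e-15), and the anion exchanger Slc4a1 (band 3) from 349, 373 and 369 to 516, 528 and 508 (0.51). Sptb, beta spectrin, fell from 272, 276 and 276 to 178, 177 and 181, a step of -0.62 (SE 0.030, limma adjusted p = 1.36e-12). Tpm1 (0.64) rose and Tpm3 (-0.99) fell, both tropomyosins of the skeleton. Aqp1, the water channel, fell from 206, 215 and 212 to 94.4, 86.1 and 87.0 (-1.23), and Cd36 rose (0.51).

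The list of terminal maturation genes gave 24 higher and 4 lower of 31 with a median of 0.47, and mitophagy and autophagy genes gave 20 higher and 7 lower of 34 with a median of 0.25. Both lists, like the others, were written with earlier results of these data known and are no independent evidence of their direction. Bnip3l (Nix), the receptor that marks mitochondria for removal, went from 106, 103 and 117 to 183, 181 and 188, a step of 0.76 (SE 0.034, limma adjusted p = 5.01e-13). Trim58, an E3 ligase that acts on dynein, went from 135, 139 and 131 to 208, 203 and 199 (0.58). Sqstm1 (0.93), Atg4a (0.84), Ulk1 (0.77), Gabarapl1 (0.71) and Pink1 (0.70) rose as well, while Map1lc3a (-0.47) and Optn (-0.43) fell. Hemgn, an erythroid nuclear protein, fell against its list, from 179, 189.7 and 197 to 86.7, 92.0 and 97.5, a step of -1.03 (SE 0.032, limma adjusted p = 3.31e-15).

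Replication and mitosis genes gave 9 higher and 32 lower of 49 with a median of -0.16, close to the median of all genes, and after median centring 19 were higher and 14 lower. The members that fell furthest were Tyms (-1.18), Cdk1 (-1.05), Pola1 (-1.02), Rrm1 (-0.96) and Mcm6 (-0.80), which make nucleotides, copy DNA or start mitosis. Cdk1 went from 76.6, 72.7 and 78.1 to 36.9, 35.3 and 35.8. The cell cycle inhibitor Cdkn1b (0.41) and the mitotic kinase Aurka (0.22) rose. Enucleation and condensation genes gave 12 higher and 18 lower of 36, with Xpo7 ahead and Diaph3 (-1.20), Rac2 (-0.81) and the lamin gene Lmnb1 (-0.65) lower. Ribosome biogenesis genes gave 18 higher and 6 lower of 30, with Polr1c (0.54) and Polr1a (0.43) higher and Myc lower.

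Cytokine receptor and JAK-STAT genes gave 10 higher and 15 lower of 29. Csf2rb (15, 78325798 to 78353847, plus strand), the shared beta chain of the interleukin 3, interleukin 5 and GM-CSF receptors, went from 14.5, 14.5 and 11.7 to 30.2, 35.0 and 29.0, a step of 1.15 (SE 0.074, limma adjusted p = 8.05e-11). Its paralogue Csf2rb2 beside it, which may share reads with it, went from 17.0, 18 and 16.2 to 33.6, 34.0 and 34.7 (0.96). Il3ra, the interleukin 3 receptor alpha chain, was at 13.5, 15.5 and 9.35 in Int and 3.99, 2.08 and 2.27 in Late, and passed the filter through Int, where it is high. Epor, the erythropoietin receptor, was at 136, 133 and 143 in Int and 135, 124 and 138 in Late, not past the threshold. The kinase genes Pim1 (0.41) and Pim2 (0.76) rose. Of the feedback genes, Socs1 (-0.38) and Socs3 (-0.47) fell, and Cish (-0.15) fell but had the other sign after median centring. With the Int nuclei of C5 alone the Socs1 step was -0.12 (limma adjusted p = 0.261). Socs2 scored 7.43, 8.48 and 7.34 in Int and 3.49, 4.09 and 2.67 in Late and passed the filter through Int, where it is high. Bcl2l1, the survival gene of late erythroblasts, went from 182, 199 and 198 to 361, 385 and 384 (0.96). Its list gave 8 higher and 8 lower of 24, 14 higher and 5 lower after median centring and 7 and 10 after quantile normalization, with the caspase inhibitor gene Xiap (-1.23), which lies next to Stag2, and Pmaip1 (-0.81) lowest.

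Cohesin genes gave 6 higher and 7 lower of 17. Stag1 (9, 100643623 to 100958544, plus strand), the paralogue on which KO cells depend, fell from 128, 129 and 133 to 56.3, 60.6 and 59.6, a step of -1.13 (SE 0.037, limma adjusted p = 5.16e-15). No Late library reached the level of an Int library. Stag2 (X, 42149412 to 42277186, plus strand) scored 58.5, 61.3 and 59.0 in KO Int, 62.2, 68.1 and 65.6 in KO Late, 57.6, 60.3 and 62.0 in WT Int and 67.5, 70.2 and 71.1 in WT Late nuclei. A score summed around the whole gene does not show whether exons were deleted, so it does not check the genotype. The regulator Pds5a (-0.85) fell, and Wapl (0.39), which opens the ring, and the loader Mau2 (0.40) rose.

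Interferon genes gave 14 higher and 11 lower of 31, with Oasl2 (1.06), Rsad2 (0.86) and Ifit1 (0.71) higher and Cxcl10 (-0.62) and Gbp7 (-0.61) lower. Apol11a rose from 59.0, 54.6 and 57.5 to 92.8, 75.6 and 81.5 (0.53), and Gmpr, an enzyme of purine conversion, fell from 63.5, 67.6 and 65.9 to 44.0, 43.1 and 40.4 (-0.62). Irf1 went from 43.1, 39.3 and 31.9 to 48.7, 42.8 and 42.9 (0.24), with Int and Late libraries that overlapped but a rise in each library. Immediate early genes gave 6 higher and 15 lower of 22, with Nr4a3 (-1.59) and Klf4 (-1.18) lowest and Fosl1 (0.75) and Klf6 (0.49) highest. Antioxidant genes gave 13 higher and 6 lower of 23, led by Cat (0.67, catalase), and glycolysis genes 8 higher and 5 lower of 20, led by Bpgm. Stem and progenitor genes gave 3 higher and 18 lower of 24 with a median of -0.61, with Sox4 (-1.15) among those that fell and Runx1 (0.43) among those that rose.

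Markers of other cell types that a Ter119 sort could hold were summed in each class. The summed score of 16 macrophage genes was 346 to 360 in KO Int and 305 to 327 in KO Late libraries, of 18 neutrophil genes 314 to 322 and 336 to 366, and of 14 B cell genes 201 to 218 and 141 to 148. Single genes weigh heavily in these sums. Cebpe alone went from 102, 109 and 120 to 169, 179 and 206, a larger rise than that of the neutrophil sum. Cd68 alone held 194, 201 and 187 of the macrophage sum in Int and 193, 212 and 204 in Late. The sum of 17 T and NK cell genes was 233 to 251 and 226 to 229, of 18 megakaryocyte genes 526 to 558 and 434 to 453, of 14 mast cell and basophil genes 118 to 123 and 85 to 87, and of 12 endothelial and stromal genes 123 to 131 and 88 to 92. Of these, 1 neutrophil gene was at 0 and no gene of the other 6 lists was. Of the tested members, 9 of 11 macrophage, 4 of 12 neutrophil, 7 of 10 B cell, 3 of 12 T and NK cell, 8 of 14 megakaryocyte, 5 of 9 mast cell and basophil and 9 of 10 endothelial and stromal genes fell, and 3 in all rose. After quantile normalization the neutrophil (7 higher, 1 lower), T and NK cell (7 and 0) and mast cell and basophil (3 and 1) lists leaned higher and the B cell list was even (3 and 3), so the direction of these 4 lists has no fixed sign. The macrophage (1 higher, 3 lower), megakaryocyte (3 and 6) and endothelial and stromal (1 and 2) lists then leaned lower less clearly. Their medians were -0.015, -0.039 and -0.18. The part of such cells in the steps was not tested.

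**Figure D2:**
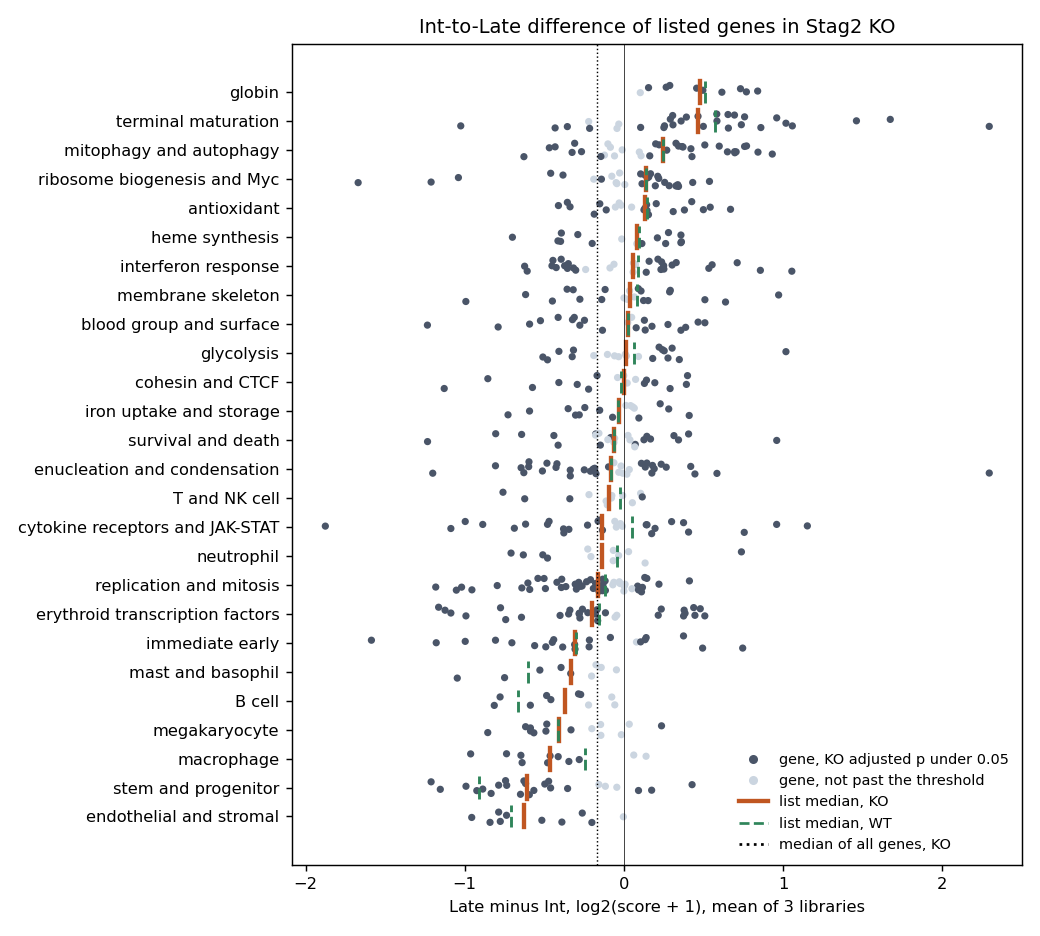
Late minus Int difference of log2(score + 1) in KO, mean of 3 libraries, for every tested gene of 26 gene lists. Dark points are genes past the adjusted p of 0.05 and light points are not. Orange bars are list medians in KO, dashed green bars list medians in WT, and the dotted line is the median of all genes in KO (-0.17). The globin and terminal maturation lists have the highest KO medians (0.48 and 0.47), and the endothelial and stromal list the lowest (-0.63). The tested genes of that last list have a median score of 7.36, close to the filter of 5, and its median is -0.18 after quantile normalization.

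The step followed the level of a gene. Genes in the lowest quartile of the mean KO score (5.00 to 10.4) had a median step of -0.51, those of the second (10.4 to 28.6) -0.31, of the third (28.6 to 73.1) -0.041 and of the highest (73.1 to 7023) 0.14. In the lowest quartile 1.55% of genes rose and 75.7% fell, and in the highest 59.4% rose and 22.3% fell. Each of the 3 KO libraries followed this order. Nuclear quality moved with it. The share of fragment ends in peaks went from 55.7% ± 0.590 in Int to 60.9% ± 0.816 in Late, the share in promoters from 44.0% ± 0.593 to 49.0% ± 0.721, and the share in blacklisted regions from 4.78% ± 0.0650 to 5.61% ± 0.0452 (SD, n = 3). Each of the 3 KO libraries moved in these directions, as did the 3 WT libraries, where 3 pairs cannot give an exact two-sided sign-flip p below 0.25 and 6 pairs gave 0.031 (adjusted 0.0402 over the measures). When nuclei were matched within each library on fragments (871, 966 and 1082 nuclei per class), the medians by quartile were -0.31, -0.11, 0.040 and 0.074 and 9201 genes were past the threshold. Fewer nuclei alone, drawn at random in the same number, gave 11957. How much of the steps of low genes goes with the depth of the nuclei was not tested further.

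**Figure D3:**
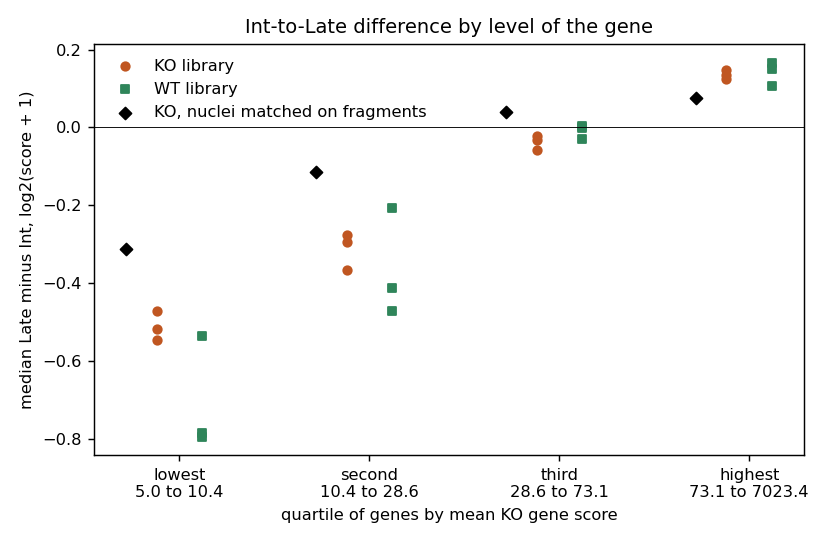
Median Late minus Int difference of log2(score + 1) for genes grouped into quartiles by their mean KO gene score, with the score range of each quartile under the axis. Orange circles are KO libraries, green squares WT libraries and black diamonds KO after matching nuclei on fragments. The KO medians run from -0.51 in the lowest quartile to 0.14 in the highest.

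The KO step was then set against the step of the 3 WT libraries. WT nuclei made the same passage, with 12521 of 17108 genes past the threshold (73.2%), 27.7% higher and 45.5% lower, Int and Late apart in 69.5%, and all 24 genes named above moved in the same direction there. Xpo7 stepped by 2.27 in WT and Tfdp1 by -2.0. For the 17073 genes present in both fits the Pearson r of the steps across genes was 0.932, and 91.5% shared the sign; genes are no independent replicates. Their SD was 0.440 in KO and 0.550 in WT, and the slope of KO on WT was 0.746 over all of them and 0.881 over genes with a mean score of at least 20. Of 11338 genes past the threshold in both, 44 went in opposite directions.

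**Figure D4:**
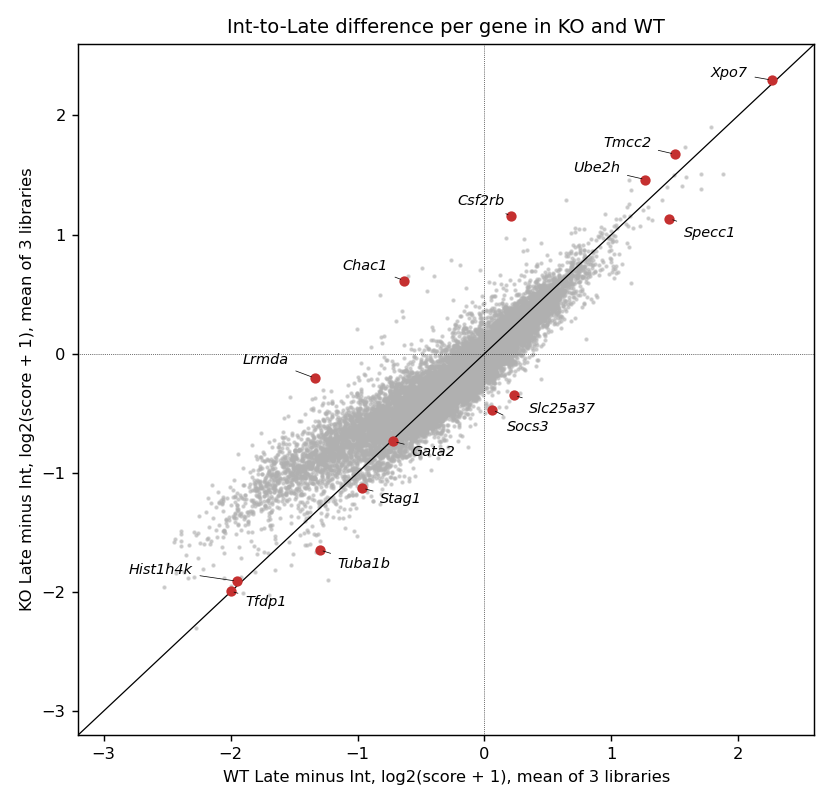
Late minus Int difference of log2(score + 1) per gene, mean of 3 libraries, in WT (horizontal) and KO (vertical) for the 17073 genes tested in both. The line marks equal differences, and 14 genes named in the text are in red. The slope of KO on WT is 0.746, and many points at the lower left lie above the line. Csf2rb, Chac1 and Lrmda lie above the line and Slc25a37 and Socs3 below it.

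The difference between the KO and the WT step was past the threshold for 1329 of 17747 genes (7.49%), 949 higher (5.35%) and 380 lower (2.14%) in KO. The steps of KO and WT were apart, with no overlap, in 25.4% of genes. This count rests on the processing and on single libraries: it was 116 in nuclei matched on fragments, 28 with the variance trend taken on the mean difference, 0 with Int nuclei of C5 alone (2530 genes at an unadjusted p under 0.05) and between 375 and 2700 with 1 library left out. The largest group was 783 genes that fell in both and fell less in KO, with a median score of 12.7. Another 155 fell in both and fell more in KO (median score 81.2), 130 rose in both and rose less, 95 fell in KO and rose in WT, 88 rose in KO and fell in WT, and 78 rose in both and rose more. The higher share of these calls was 71.4% as computed, 52.2% after quantile normalization, 80.9% after median centring, 49.8% with a filter at 20 and 94.7% without the variance trend. KO Int nuclei were also deeper than WT Int nuclei, at 14480 ± 545 against 11890 ± 1535 fragments, while Late nuclei were at 6202 ± 261 and 6345 ± 582. The fall in fragments was larger in every KO library (two-sided p = 0.1 by exact permutation of the labels, adjusted 0.18, where 3 against 3 can go no lower). The change from Int to Late was also apart between KO and WT libraries, at the same p, for the share in blacklisted regions (0.833 and 0.21 percentage points), TSS enrichment (1.61 and 0.491), the nucleosome ratio (0.0328 and 0.0597) and doublet enrichment (-0.533 and -0.0921). The part of fragments was not tested beyond the matched nuclei, and that of the other measures was not tested.

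Chac1 (2, 119351242 to 119354326, plus strand), a glutathione-degrading enzyme induced by the integrated stress response, went the opposite way in the 2 genotypes. It scored 29.3, 38.5 and 59.0 in KO Int, 44.1, 69.6 and 80.0 in KO Late, 15.3, 24.6 and 19.7 in WT Int and 10.1, 15.8 and 11.4 in WT Late nuclei. The KO libraries differed widely in level, so that Int and Late values overlapped between them, but each KO library rose and each WT library fell. The difference of the steps was 1.25 (SE 0.11, limma adjusted p = 4.94e-07) and was past the threshold in 18 of 20 alternatives. Its promoter (chr2:119350992-119351291, + strand) is shown because the gene moved in opposite directions. Capitals mark 3 CCAAT boxes, a motif that 37.8% of all promoters hold.
Chac1: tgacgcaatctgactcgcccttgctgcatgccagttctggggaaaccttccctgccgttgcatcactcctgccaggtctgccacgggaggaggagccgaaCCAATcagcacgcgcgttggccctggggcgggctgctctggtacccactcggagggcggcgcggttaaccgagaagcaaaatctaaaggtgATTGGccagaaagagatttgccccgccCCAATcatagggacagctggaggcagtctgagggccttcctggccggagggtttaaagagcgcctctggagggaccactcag

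Of 28 cytokine receptor and JAK-STAT genes, 4 had a higher and 1 a lower step in KO and 23 were not past the threshold, beside 5.35% and 2.14% of all genes. Csf2rb stepped by 1.15 in KO and 0.21 in WT, where it scored 9.68, 11.5 and 9.07 in Int and 12.2, 11.8 and 11.3 in Late. The difference was 0.94 (SE 0.14, limma adjusted p = 3.11e-04), past the threshold in 17 of 19 alternatives, and that of Csf2rb2 was 0.65 (adjusted p = 0.00667). Socs3 (11, 117966079 to 117969366, minus strand), which shuts down JAK signalling, fell in KO from 74.7, 74.8 and 83.6 to 53.8, 53.2 and 60.5 and was not past the threshold in WT, at 32.5, 32.5 and 26.9 in Int and 30.1, 33.4 and 32.2 in Late. Its KO libraries were above its WT libraries in both classes, and the difference of the steps was -0.53 (SE 0.082, limma adjusted p = 5.04e-04), past the threshold in 17 of 20 alternatives. Socs1 (-0.38 in KO and -0.70 in WT) and Pim3 (-0.16 and -0.41) had negative steps in both genotypes, less so in KO. Their differences were 0.32 and 0.25, past the threshold of the same test. The Socs3 promoter (chr11:117969317-117969616, - strand) is shown with its only STAT spelling, TTCNNNGAA, in capitals 154 bases before the start.
Socs3: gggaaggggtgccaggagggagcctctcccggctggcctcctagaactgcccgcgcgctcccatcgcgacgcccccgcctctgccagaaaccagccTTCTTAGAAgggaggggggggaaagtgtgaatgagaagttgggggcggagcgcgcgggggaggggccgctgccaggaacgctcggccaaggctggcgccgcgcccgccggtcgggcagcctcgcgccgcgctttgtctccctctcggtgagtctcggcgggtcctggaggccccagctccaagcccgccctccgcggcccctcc

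Hemgn stepped by -1.03 in KO and -0.63 in WT, where it scored 221, 211 and 224 in Int and 153, 134 and 137 in Late, a difference of -0.39 (SE 0.050, limma adjusted p = 7.74e-05) that held in 17 of 20 alternatives. Slc25a37 (14, 69241851 to 69285103, minus strand), mitoferrin, which carries iron into mitochondria for heme, fell in KO from 35.9, 35.0 and 35.0 to 31.5, 23.9 and 27.5 and rose in WT from 34.5, 36.3 and 38.2 to 39.3, 41.8 and 47.8, a difference of -0.58 (SE 0.093, limma adjusted p = 6.00e-04) that held in 16 of 20 alternatives. Tfrc, which rose slightly in WT (0.087), differed by -0.16 (SE 0.048, limma adjusted p = 0.0462), past the threshold in 5 of 20 alternatives. Erfe (difference -0.42), Aqp1 (difference -0.36), Sptb (difference -0.24), Diaph3 (difference -0.25) and Xiap (difference -0.36) fell in both and fell further in KO. Ank1 and Optn fell in KO, with steps of -0.36 and -0.43 and differences from WT of -0.26 and -0.31. Their WT steps of -0.10 and -0.12 were close to the WT median of all genes (-0.12). Of the 24 genes named for the largest steps, 6 had a difference past the threshold. Among them Tuba1b (difference -0.35) and Zbtb14 (difference -0.34) fell in both and fell further in KO. How many alternatives kept the differences of these genes is not reported here. Other genes rose in both, and their differences are given in brackets. Specc1 (-0.32), Cat (-0.31), Hba-a2 (-0.17) and Hbq1a (-0.18) rose less in KO, as did Tbcel (-0.19), while Ube2h (0.19) and Tmcc2 (0.17) rose more. These small differences held in 17 of 20 alternatives for Specc1, 14 for Cat, 12 for Ube2h, 10 for Hbq1a, 7 for Tmcc2, 6 for Tbcel and 5 for Hba-a2. By list, beside 5.35% higher and 2.14% lower over all genes, the test was past the threshold for 2 higher and 7 lower of 31 terminal maturation genes, 1 and 5 of 30 erythroid factors, 1 and 3 of 16 iron genes, 0 and 3 of 21 membrane skeleton, 0 and 2 of 20 surface, 0 and 2 of 10 globin, 0 and 2 of 34 mitophagy, 0 and 1 of 36 enucleation and 0 and 1 of 49 replication genes, none of 15 heme and none of 17 cohesin genes. Immediate early genes gave 3 higher and 1 lower of 22, antioxidant genes 1 and 2 of 23, interferon genes 1 and 1 of 31. The higher antioxidant gene was Slc7a11. Its WT mean alone was under the filter, which it passed through KO, where it is higher, so this call is a description. Survival genes gave 1 and 1 of 24, and none of 30 ribosome biogenesis and 20 glycolysis genes was past it. The difference was -0.008 for Gata1 (limma adjusted p = 0.955), -0.018 for Gata2 (0.956) and -0.098 for Klf1 (0.244), none past it. For Stag1 the difference was -0.17 (SE 0.054, limma adjusted p = 0.0644), with scores of 143, 139 and 139 in WT Int and 73.8, 74.0 and 67.0 in WT Late, and not past it either.

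For marker genes of other lineages the calls were about as frequent as over all genes (7.49%). None of 9 macrophage, 10 B cell, 8 T and NK cell and 9 mast cell and basophil genes was, while 2 of 8 endothelial and stromal genes were higher, 1 of 14 megakaryocyte genes was higher and P2ry1 lower (-0.25), and of 11 neutrophil genes Cebpe was lower (-0.22). In WT alone 6 endothelial and stromal genes passed the filter. Some of the 8 therefore passed it through KO, where they are higher, and the 2 calls are descriptions. The progenitor and vessel genes Fli1 (difference 0.75), Erg (0.61), Etv6 (0.54), Mecom (0.46) and Kdr (0.55) had a higher step in KO. Of 23 stem and progenitor genes, 4 were past the threshold, all higher. These were Fli1 (-0.57 in KO and -1.31 in WT), Erg (-0.74 and -1.35), Etv6 (-0.59 and -1.14) and Mecom (-0.92 and -1.39). They fell in both genotypes and fell less in KO, as did the largest group of calls over all genes. Lrmda (14, 22019712 to 23056088, plus strand), a pigment cell gene, scored 61.8, 62.3 and 61.9 in KO Int and 51.2, 59.5 and 50.7 in KO Late, against 62.9, 59.5 and 48.0 and 21.6, 22.8 and 20.9 in WT, so that Late WT libraries lay far below all others. Its difference was 1.13 (SE 0.086, limma adjusted p = 1.21e-07) and was 1.09 in nuclei matched on fragments (adjusted p = 7.90e-05). The factor gene Cebpd scored 4.94, 4.76 and 5.60 in KO Int, 3.35, 4.91 and 4.36 in KO Late, 11.8, 10.6 and 7.66 in WT Int and 3.61, 3.68 and 2.38 in WT Late. It passed the filter through WT Int, the group where it is high, so its difference of 1.14 is given as a description.

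**Figure D5:**
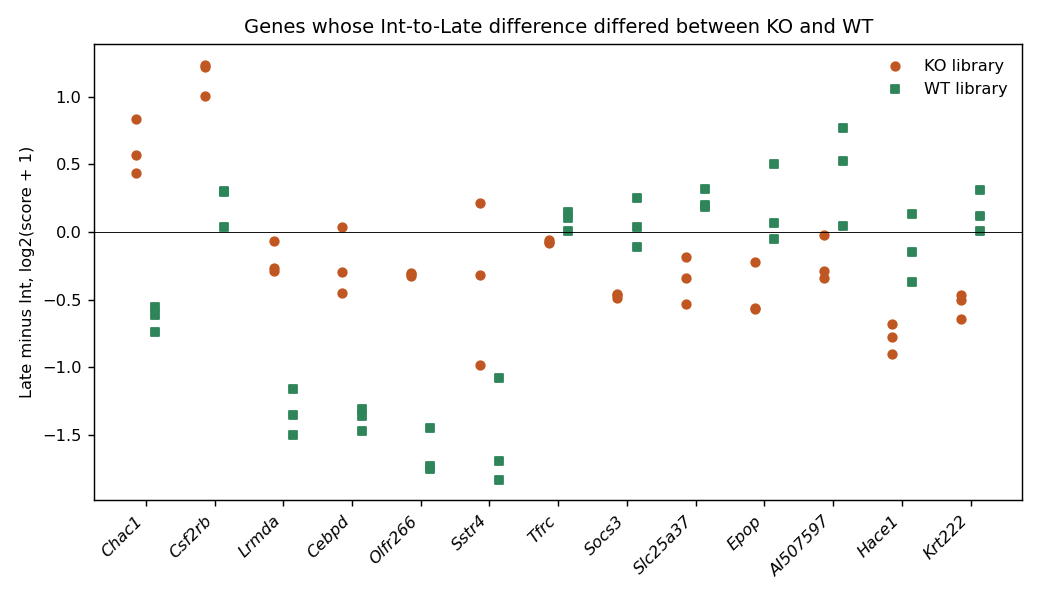
Late minus Int difference of log2(score + 1) in each library for 13 genes whose difference was past the threshold between KO (orange circles) and WT (green squares). The horizontal line marks no change between the classes. Chac1 lies above the line in the 3 KO libraries and below it in the 3 WT libraries, Slc25a37 the other way, and Sstr4 shows the widest spread among KO libraries.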

How the data were processed

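Nuclei of sorted Ter119+ erythroblasts were profiled as 10x multiome libraries. Reads were processed with Cell Ranger on mm10, per the submitters' processing notes, with versions not given in the sources used here. The deposited signal is the authors' gene score for 24333 genes, scaled to a sum of about 10000 per nucleus. The deposited table of nuclei gives the authors' class and cluster, the fragment count, the nucleosome ratio, the doublet score and the shares of fragment ends in peaks, promoters and blacklisted regions. It holds 2 stacked copies, and 1 was used. No doublet caller was run, and a run without the 10% of nuclei with the highest doublet scores is an alternative.

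Scores were averaged per library and class, set to a sum of 1000000 and taken as log2(score + 1), with genes kept at a mean of at least 5. Differences were fitted with limma 3.58.1 (R 4.3.3, empirical Bayes with a variance trend on the level) over 3 pairs per genotype or 6 libraries, and adjusted by Benjamini-Hochberg at 0.05. The depth of each value is the fragment total of its class, and the table gives no interval for a score. Genes named are the 12 highest and 12 lowest KO steps at a score of at least 20 in the higher class with libraries apart and 1 gene per 100 kb, the 5 highest and 5 lowest differences between genotypes, a set of erythroid genes and the leading members of 26 lists. The members and lists were chosen with earlier results of these data known, and other list members were named after their values were seen. Hbb-bt was not analysed here, and some genes of the lists are not reported here. Scripts were tested on simulated data. For the KO step 96% of genes changed by 0.5 on the log2 scale and 68% of those changed by 0.25 were found (18292 genes). For the difference between genotypes the shares were 68% and 34% (17747 genes). In these runs 50 genes were changed at each size, far fewer than were past the threshold in the data. Gene positions are from the authors' table, promoters and their positions from RefSeq (GRCm38.p6, the patch release of mm10), matched for 17258 symbols. Alternatives changed the scaling, filter, pseudocount, variance trend, nuclei, Int cluster and libraries.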

Additional observations from a re-analysis of the deposited data

Results flagged for a closer look

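Of the 1329 genes whose Late minus Int difference between KO and WT libraries passed the adjusted threshold of limma, 13 are listed here. They are the 5 highest and 5 lowest by the naming rule, with Csf2rb, Socs3 and Tfrc added. Higher in KO were Olfr266 (difference 1.33), Chac1 (1.25), Sstr4 (1.17), Cebpd (1.14), Lrmda (1.13) and Csf2rb (0.94). Lower in KO were Krt222 (-0.68), Hace1 (-0.66), AI507597 (-0.66), Epop (-0.62), Slc25a37 (-0.58), Socs3 (-0.53) and Tfrc (-0.16). Cebpd passed the filter only through WT Int, where it is high, and the WT mean of Olfr266 alone was under the filter, so both differences are descriptions. Csf2rb, Socs3 and Tfrc were chosen after their values were seen.

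Scores of the olfactory receptor gene Olfr266 were 7.13, 7.39 and 6.81 in KO Int, 5.61, 5.68 and 5.30 in KO Late, 8.11, 9.17 and 6.71 in WT Int and 2.35, 2.06 and 1.29 in WT Late. Sstr4, a somatostatin receptor, scored 11.4, 8.02 and 9.63 and 5.30, 6.26 and 11.3 in KO, where 1 library rose and the others fell, and its difference was past the threshold in 13 of 19 alternatives. Hace1, an E3 ubiquitin ligase, scored 22.5, 19.6 and 20.6 in KO Int and 11.6, 11.0 and 12.5 in KO Late against 23.1, 22.8 and 17.5 and 20.8, 17.4 and 19.4 in WT, with the call kept in 14 of 19. Epop, a cofactor of Polycomb repressive complex 2, scored 15.9, 10.8 and 13.0 and 10.5, 6.96 and 11.0 in KO and kept the call in 11 of 19. Krt222 kept it in 11 of 17 and AI507597 in 8 of 19.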

How the results depend on the processing

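The KO count of 14017 genes was 8289 of 10638 with a filter at 20 and 9201 in nuclei matched on fragments, and 12891 to 13402 with 1 KO library left out. The WT count was 7440 with a filter at 20, 6551 with Int nuclei of C5 alone and 9904 to 13680 with 1 library left out. The difference between genotypes (1329) was 0 with no filter (5088 at an unadjusted p under 0.05), 601 with a filter at 20, 741 with quantile normalization, 430 without the variance trend, 116 in matched nuclei, 403 with as many nuclei at random, 0 with C5 alone (2530 unadjusted) and 28 with the variance trend on the mean difference, an alternative chosen after seeing the data. It ranged from 375 (without KO replicate 2) to 2700 (without WT replicate 3), with 720, 939, 413 and 961 without KO replicate 1, KO replicate 3, WT replicate 1 and WT replicate 2. The cause was not tested. The main test did not pair the genotypes by replicate number. With the mean step of each genotype taken out per gene, the steps of same-numbered libraries correlated across genes at 0.116, -0.017 and 0.134. A replicate block gave 1844 genes in place of 1329. Without the library block the KO step gave 13248.

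Signs of the KO step turned after median centring for Tal1 (0.047), Zfpm1 (0.051), Tfrc (0.14), Epor (0.16), Cdk6 (0.083), Cish (0.063) and Lrmda (0.010). They turned under quantile normalization and cyclic loess for Olfr266 (0.24 and 0.23), Sstr4 (0.097 and 0.11), Krt222 (0.087 and 0.064), AI507597 (0.40 and 0.37), Cd34 (0.33 and 0.35), Alox15 (0.31 and 0.31), Slc7a11 (0.13 and 0.13) and Lyl1 (-0.0045 and -0.038). In matched nuclei they turned for Olfr266 (0.14), Lrmda (0.048), Epop (0.022), Cdk6 (0.0022) and Lyl1 (-0.018), and with C5 alone for Lyl1 (-0.00059). With the turned sign, Tfrc and Epor were past the threshold after median centring. Cd34, Alox15 and AI507597 were past it under both quantile normalization and cyclic loess. The genotype difference of Gmpr, 0.015 as computed and not past the threshold (adjusted p = 0.959), turned to -0.51 after quantile normalization and was then past it (adjusted p = 0.00445). Of the single-gene KO steps, 2676 values kept sign and side of the threshold, 85 lost the call and 6 gained it.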

Other observations

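Among the 44 genes past the threshold in opposite directions in the 2 genotypes were Ankrd44, at 0.27 in KO and -0.70 in WT, Ncoa7, at -0.23 and 0.19, Man1a, at -0.13 and 0.27, and Mir21a, at -0.12 and 0.30. They were chosen after their values were seen, and no explanation was tested.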
